A study of Homo sapiens with 9 samples.

Results

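The genes described here are 41 genes of glucose uptake, glycolysis and the hypoxia response, taken by gene symbol from the annotation of an Affymetrix exon array. A gene counted as measured where a probe set named it and no other gene, and where several did, the probe set with the highest mean was used. By this rule 33 of the 41 were measured, among 14207 genes in all. They fall into 18 of 23 listed genes of glucose transport and glycolysis and 15 of 18 listed genes of the hypoxia-inducible factors (HIF) and their other targets. Of the 8 without a value, SLC2A3 and EGLN1 lay only on probe sets that also name another gene. SLC16A1, SLC16A3, GAPDH, PGAM1, CA9 and ANKRD37 were not analysed here.

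The RNA on the 9 arrays came from the ARPE-19 line, which was established from human retinal pigment epithelium. There were 3 arrays of vehicle control, 3 of cells given cigarette smoke condensate at 100 µg/ml and 3 at 250 µg/ml. The condensate was bought as a DMSO stock made from 3R4F research cigarettes, and it contains nicotine. All cells had been grown to confluence in medium with serum and were then kept in albumin medium without it. The sources used here give neither exposure time nor oxygen level. They do not say whether the arrays of a group stem from different cultures, so each p-value reflects the spread among these arrays alone, and that spread could be technical. The comparisons ask how each dose changed RNA levels against vehicle and how the higher dose differed from the lower.

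Glycolysis splits glucose into pyruvate in the cytosol, and lactate dehydrogenases convert pyruvate and lactate into each other. Oxygen-dependent prolyl hydroxylases mark the HIF alpha subunits for destruction; when oxygen is scarce the subunits persist, pair with ARNT and raise transcription of many glycolytic genes and of genes for mitophagy, collagen hydroxylation and pH control. In the retina the pigment epithelium passes blood glucose on to the photoreceptors and takes up their lactate.

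Values are the deposited log2 expression values, whose array medians lay between 4.42 and 4.59. Without detection calls, low values leave expression undecided. Apart from placing markers and dim genes on the scale, probe sets are not compared with each other in level. Changes are differences of log2 means with the moderated standard error of limma, and p-values were adjusted by Benjamini-Hochberg over the 14207 genes with a threshold of 0.05. At 250 µg/ml 78 genes passed, and at 100 µg/ml 9 genes passed. Array 3 of both dosed groups stood apart from arrays 1 and 2 in many of the members, so medians over the members are given with and without it. Of 20 listed retinal pigment epithelium markers 18 were measured. The defining markers RPE65, RLBP1, BEST1 and TTR were near the bottom of the scale on every array (2.33 to 3.50). With CDH3 they made up the 5 markers below the lower quartile of gene means. Above the median gene lay 9 markers, KRT8, KRT18, OTX2, MITF, PMEL, TYRP1, RDH5, RDH11 and TJP1. The mean of the measured markers on an array was 5.34 to 5.64 in vehicle, against 5.16 to 5.31 in cells given 100 µg/ml and the same range in cells given 250 µg/ml. For 8 fibroblast markers it was 3.90 to 4.44 in vehicle, 3.71 to 3.93 in cells given 100 µg/ml and 3.63 to 3.87 in cells given 250 µg/ml. No marker of these lists, or of endothelium, leukocytes or photoreceptors, passed the limma threshold. The means of both lists were thus lower at 250 µg/ml, with no overlap with vehicle, as was the epithelium mean at 100 µg/ml. Single markers went both ways. At 250 µg/ml the largest falls on the lists were in TYRP1 (-1.14), COL1A1 (-1.01) and PDGFRB (-0.99), and the largest rises in RDH11 (0.83) and MERTK (0.47). In each of these 250 µg/ml overlapped with vehicle. The part of the lists in the results below was not tested.

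The glycolytic genes lay mostly lower under condensate, but none passed the threshold at either dose. At 250 µg/ml the mean was lower than in vehicle for 15 of 18, with a median log2 change of -0.44, against a median of -0.04 and 57.3% lower over all genes. Without array 3 of that dose the median was -0.31, and without all 3 arrays numbered 3 it was -0.39. At 100 µg/ml the mean was lower for 14 of 18, with a median of -0.26, against -0.05 and 59.2% over all genes. Without array 3 of the 100 µg/ml group that median was -0.02, and without vehicle array 2 it was -0.14. Both comparisons use the same 3 vehicle arrays. In RNA from whole cultures, fewer cells of a kind and less RNA per cell cannot be told apart.

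Among the genes of HIF and its other targets 1 of 15 passed at 250 µg/ml, NDRG1, which fell. NDRG1 was thus the only 1 of the 33 measured members to pass, where 0.549% of all genes passed in either direction and 0.162% passed as lower. At 100 µg/ml 0 of 33 passed by limma, where 0.0633% of all genes passed. Without adjustment, 4 members had p under 0.05 at 100 µg/ml, LDHB higher and MXI1, NDRG1 and PFKL lower, where 7% of all genes were higher and 7.65% lower at that level. These shares of members are near those of all genes. At 250 µg/ml 8 members did, all lower, where 7.9% of all genes were lower and 8.74% higher at that level. These 8 were ALDOC, BNIP3L, ENO2, KDM3A, LDHA, MXI1, NDRG1 and PFKL.

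**Figure D1:**
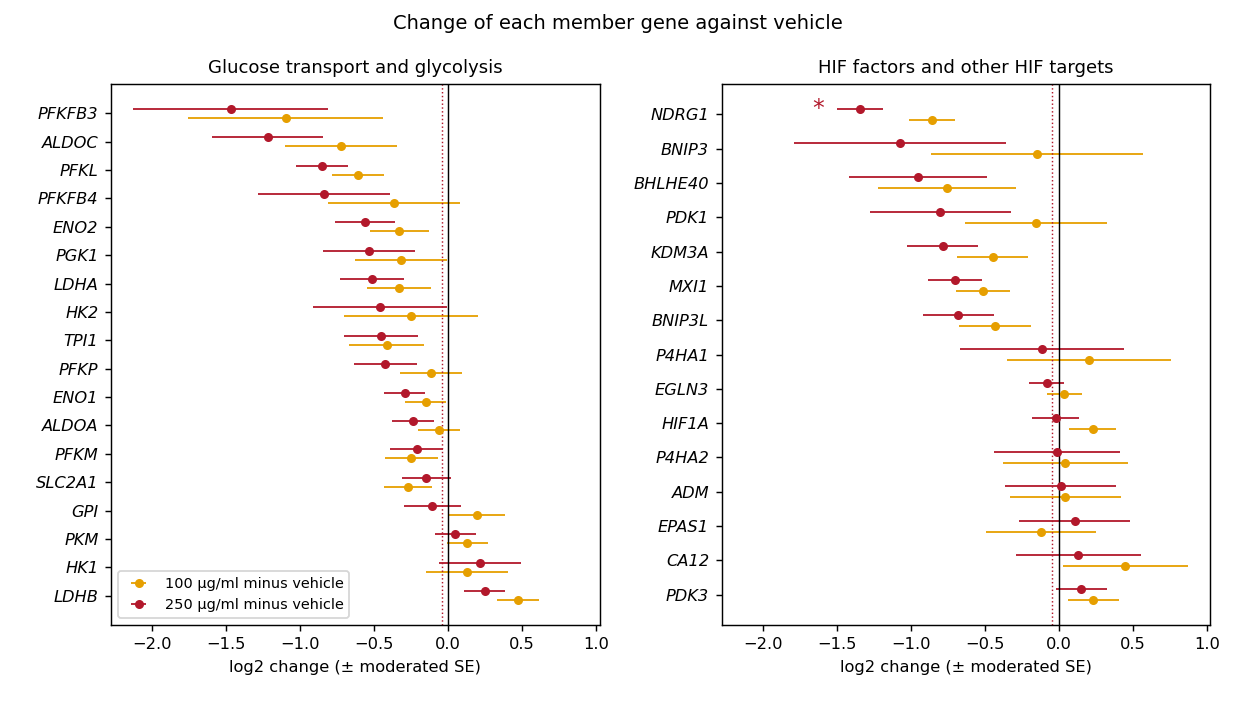
Log2 change of each measured member against vehicle (x axis, points with moderated standard errors), at 100 µg/ml (orange) and 250 µg/ml (red), for 18 genes of glucose transport and glycolysis (left) and 15 of HIF and its other targets (right). The star marks NDRG1, the member past the adjusted threshold, and the dotted line is the median of all genes at 250 µg/ml.

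Groups that do not overlap give a view that rests on no model. All 3 arrays at 250 µg/ml lay below all 3 vehicle arrays for 12 of 33 members, where this held for 14.3% of all genes. They were PFKL, PFKP, PFKFB3, PFKFB4, ALDOC, ENO2 and LDHA in glycolysis, and NDRG1, PDK1, BNIP3L, KDM3A and MXI1 among the HIF targets. No member lay wholly above vehicle at 250 µg/ml, where 8.61% of all genes did. At 100 µg/ml NDRG1, PFKFB3 and PFKL lay wholly below vehicle, 3 of 33 members, where 11.9% of all genes did. LDHB alone lay wholly above, 1 of 33, where 6.41% of all genes did. With 3 arrays against 3 an exact permutation test of a single gene cannot give a two-sided p below 0.1.

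The first step of glucose use is its entry through transporters and its phosphorylation. SLC2A1, which encodes the main glucose carrier of this epithelium, had log2 values of 11.94, 11.75 and 11.30 in vehicle, 11.42, 11.28 and 11.47 at 100 µg/ml and 11.39, 11.56 and 11.59 at 250 µg/ml. The groups overlapped, and its log2 change was -0.15 ± 0.163 (SE, n = 3 arrays each) at 250 µg/ml, with a limma adjusted p of 0.677. HK2, a hexokinase that traps glucose in the cell, read 5.86, 5.86 and 5.12 in vehicle, 5.95, 5.80 and 4.34 at 100 µg/ml and 5.36, 5.56 and 4.54 at 250 µg/ml. In all 3 groups array 3 was the lowest. Its change of -0.46 ± 0.454 at 250 µg/ml was about as large as its error. Without array 3 of that dose it was -0.16, and without all 3 arrays numbered 3 it was -0.41. For HK1, the other hexokinase, the change was 0.22 at 250 µg/ml and 0.12 at 100 µg/ml. GPI, the isomerase that follows, differed by -0.11 and 0.19 on the log2 scale at 250 and 100 µg/ml.

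The phosphofructokinase step, which commits sugar to glycolysis, held the glycolytic gene with the lowest p. PFKL, the liver-type subunit, had log2 values of 8.64, 9.29 and 8.61 in vehicle, 8.21, 8.32 and 8.19 at 100 µg/ml and 7.97, 8.07 and 7.95 at 250 µg/ml. All 3 groups stood apart, in the order of dose. Its change was -0.85 ± 0.176 at 250 µg/ml (limma adjusted p = 0.0701) and -0.61 ± 0.176 at 100 µg/ml (limma adjusted p = 0.217). It passed the threshold at 250 µg/ml with arrays weighted by quality (limma adjusted p = 0.0455) and without vehicle array 3 (limma adjusted p = 0.0479). The muscle-type PFKM and platelet-type PFKP subunits had changes of -0.21 and -0.42 at 250 µg/ml.

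PFKFB3 and PFKFB4 encode enzymes that make fructose 2,6-bisphosphate, the activator of phosphofructokinase. PFKFB3 read 7.47, 8.26 and 7.40 in vehicle, 7.24, 7.37 and 5.24 at 100 µg/ml and 6.84, 6.83 and 5.06 at 250 µg/ml. Array 3 stood far below the other arrays at both doses and not in vehicle. The change at 250 µg/ml was -1.47 ± 0.658, with a limma adjusted p of 0.307. Without array 3 of that dose it was -0.88. PFKFB4 read 6.34, 6.77 and 6.29 in vehicle, 6.72, 6.56 and 5.02 at 100 µg/ml and 5.91, 5.94 and 5.03 at 250 µg/ml. At 100 µg/ml arrays 1 and 2 lay within the vehicle range and array 3 well below it, while at 250 µg/ml all 3 lay below. Its change at 250 µg/ml was -0.84 ± 0.446 (limma adjusted p = 0.383), and without array 3 of that dose it was -0.54.

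Aldolases cut the sugar into triose phosphates. ALDOC, the brain-type aldolase, had log2 values of 7.54, 8.15 and 8.17 in vehicle, 7.42, 7.74 and 6.53 at 100 µg/ml and 6.93, 7.20 and 6.07 at 250 µg/ml. All 250 µg/ml arrays were below vehicle, by a mean of -1.22 ± 0.376 (limma adjusted p = 0.171), or -0.89 without array 3 of that dose. ALDOA, the more widely used form, read 8.85, 8.55 and 8.70 in vehicle, 8.74, 8.79 and 8.39 at 100 µg/ml and 8.43, 8.61 and 8.35 at 250 µg/ml. These groups overlapped, and the change was -0.24 ± 0.142 at 250 µg/ml. TPI1, the triose phosphate isomerase, read 2.33 to 3.58 over the 9 arrays, with a mean below the lower quartile of gene means (3.06), and its change of -0.45 at 250 µg/ml rests on such dim values.

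The later enzymes carry the steps that yield ATP and end in lactate. PGK1, a phosphoglycerate kinase, read 12.88, 13.16 and 12.80 in vehicle, 13.05, 12.91 and 11.92 at 100 µg/ml and 12.84, 12.34 and 12.06 at 250 µg/ml, with a change of -0.53 ± 0.311 at the higher dose. Array 1 at that dose lay within the vehicle range, and without array 3 of that dose the change was -0.355. ENO1 and ENO2, the alpha and gamma enolases, differed by -0.29 and -0.56 at 250 µg/ml (limma adjusted p = 0.331 and 0.224). PKM, the pyruvate kinase, read 11.34, 10.92 and 11.07 in vehicle, 11.40, 11.22 and 11.10 at 100 µg/ml and 11.19, 11.23 and 11.04 at 250 µg/ml. Its groups overlapped, and its change at 250 µg/ml was 0.05 ± 0.137.

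The lactate dehydrogenase subunits lay on opposite sides of vehicle. LDHA, the muscle-type subunit and a HIF target, had log2 values of 12.30, 12.51 and 12.64 in vehicle, 12.37, 12.30 and 11.78 at 100 µg/ml and 12.03, 12.28 and 11.60 at 250 µg/ml. Its 250 µg/ml arrays all lay below vehicle, the highest of them by a small margin, and the change was -0.51 ± 0.215 (limma adjusted p = 0.283), or -0.33 without array 3 of that dose. LDHB, the heart-type subunit, read 11.02, 11.41 and 11.41 in vehicle, 11.79, 11.86 and 11.60 at 100 µg/ml and 11.51, 11.40 and 11.66 at 250 µg/ml. The 100 µg/ml arrays all lay above vehicle, while 250 µg/ml array 2 did not. Its change was 0.47 ± 0.139 at 100 µg/ml (limma adjusted p = 0.219) and 0.25 ± 0.139 at 250 µg/ml (limma adjusted p = 0.406). The difference between the subunits was not tested.

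**Figure D2:**
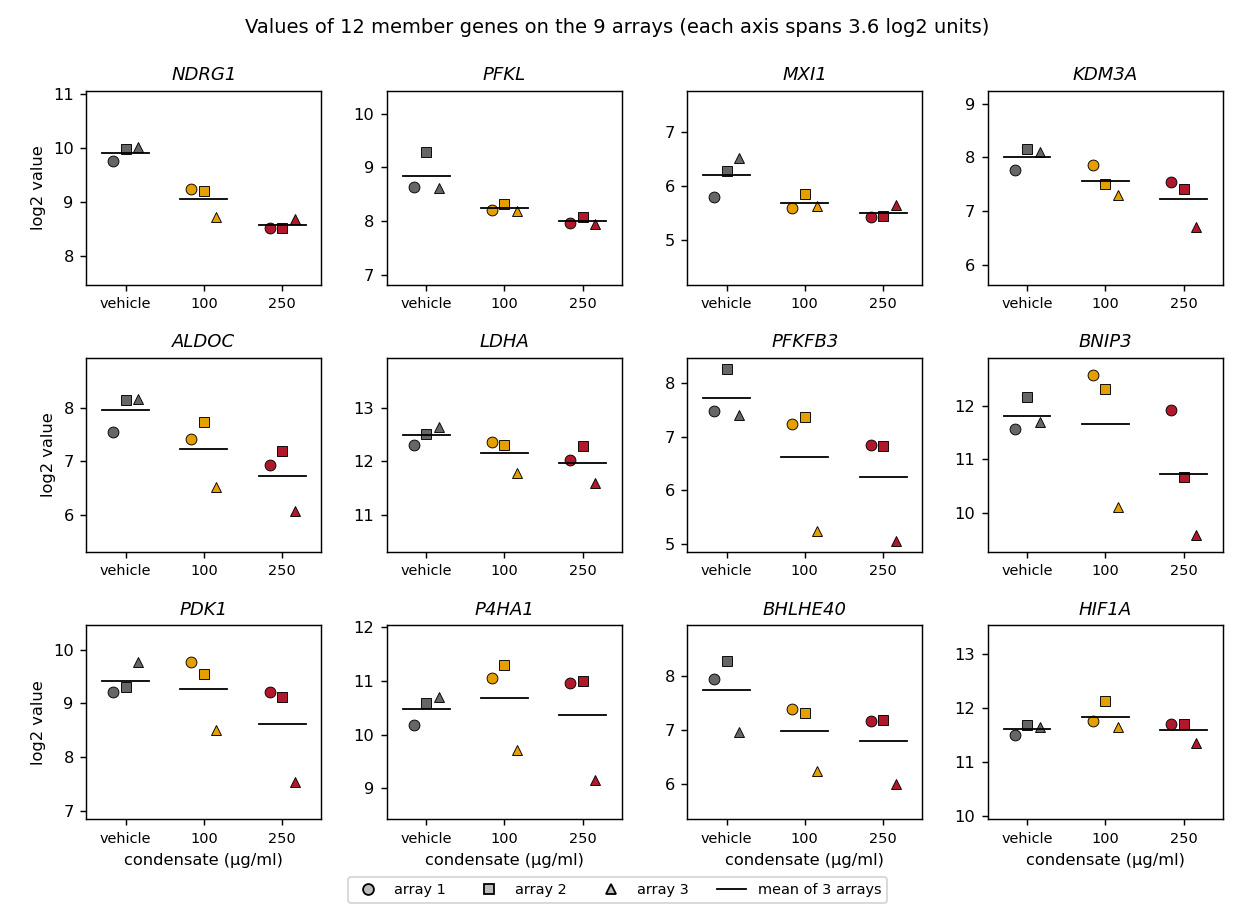
Log2 values of 12 members on the 9 arrays by condensate concentration (x axis), with a marker shape for each array number and a bar at each group mean. NDRG1 and PFKL are lower at each higher dose, and PFKFB3, BNIP3, PDK1, P4HA1 and BHLHE40 have array 3 far below arrays 1 and 2 at both doses; KDM3A and P4HA1 were added to the plot after their values were seen.

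No gene of the HIF factors or their hydroxylases passed the threshold in any comparison, and their arrays at either dose overlapped with vehicle. HIF1A, the alpha subunit of HIF-1, which is set mainly through protein stability, had log2 values of 11.49, 11.69 and 11.65 in vehicle, 11.75, 12.12 and 11.65 at 100 µg/ml and 11.71, 11.70 and 11.35 at 250 µg/ml. Its change was -0.02 ± 0.157 at 250 µg/ml and 0.23 ± 0.157 at 100 µg/ml. EPAS1, which encodes HIF-2 alpha, read 9.35, 7.56 and 8.40 in vehicle, 8.37, 8.10 and 8.47 at 100 µg/ml and 8.50, 8.49 and 8.63 at 250 µg/ml. The vehicle arrays spread more widely than all the dosed arrays together, and the change at 250 µg/ml was 0.11 ± 0.373. All 250 µg/ml arrays lay above all 100 µg/ml arrays, by a mean of 0.23 ± 0.373 (limma adjusted p = 1). EGLN3, a prolyl hydroxylase that HIF induces, read 3.38, 3.49 and 3.55 in vehicle, 3.54, 3.63 and 3.36 at 100 µg/ml and 3.55, 3.37 and 3.25 at 250 µg/ml. These low values overlapped between groups, with a change of -0.08 ± 0.119 at 250 µg/ml.

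NDRG1, a stress- and hypoxia-induced gene linked to growth arrest and differentiation, had log2 values of 9.76, 9.98 and 10.01 in vehicle, 9.24, 9.20 and 8.72 at 100 µg/ml and 8.51, 8.51 and 8.68 at 250 µg/ml. The 3 groups did not overlap, and each higher dose was lower. At 250 µg/ml it fell by 1.35 ± 0.155 on the log2 scale (limma adjusted p = 0.0127), to 0.394 times its vehicle level. The change at 100 µg/ml was -0.86 ± 0.155 and did not pass (limma adjusted p = 0.133). In limma's F test of any difference among the 3 groups it passed with an adjusted p of 0.0393, again the only member, where 0.197% of all genes passed. The F test lost this call in 8 of the 9 fits that left out 1 array, all but that without 100 µg/ml array 3, and with the array number as a replicate block (limma adjusted p = 0.0883). The call at 250 µg/ml was lost without 250 µg/ml array 1 (adjusted p = 0.076), without 250 µg/ml array 2 (adjusted p = 0.103), and with only the 6 arrays of the comparison in the limma fit (adjusted p = 0.0685). The change was -1.32 on the log2 scale without either array.

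Other targets act in mitochondria. BNIP3 and BNIP3L encode receptors that mark mitochondria for autophagy. BNIP3 read 11.57, 12.15 and 11.70 in vehicle, 12.56, 12.30 and 10.12 at 100 µg/ml and 11.91, 10.68 and 9.60 at 250 µg/ml. At 100 µg/ml arrays 1 and 2 lay above all vehicle arrays and array 3 below them all, so the group mean hides a wide split. The change at 250 µg/ml was -1.07 ± 0.718 (limma adjusted p = 0.48), and without array 3 of that dose it was -0.51. BNIP3L had a smaller spread, with a change of -0.68 ± 0.241 at 250 µg/ml (limma adjusted p = 0.222), or -0.495 without array 3 of that dose.

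PDK1 and PDK3 encode kinases that shut pyruvate out of the mitochondrial pyruvate dehydrogenase reaction. PDK1 read 9.22, 9.30 and 9.76 in vehicle, 9.76, 9.55 and 8.50 at 100 µg/ml and 9.22, 9.11 and 7.54 at 250 µg/ml. Array 1 at 250 µg/ml stood only just below the lowest vehicle array, and array 3 far below. The change at 250 µg/ml was -0.80 ± 0.479 (limma adjusted p = 0.434), and without array 3 of that dose it was -0.26. PDK3 differed by 0.15 ± 0.173 at that dose.

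Among regulators of transcription, MXI1, which opposes MYC, had log2 values of 5.80, 6.29 and 6.52 in vehicle, 5.59, 5.85 and 5.64 at 100 µg/ml and 5.42, 5.44 and 5.65 at 250 µg/ml. All 250 µg/ml arrays were below vehicle, while 100 µg/ml array 2 was not. Its change at 250 µg/ml was -0.70 ± 0.183 (limma adjusted p = 0.119), and it passed after quantile normalization (limma adjusted p = 0.0484) and without vehicle array 1 (limma adjusted p = 0.0482). BHLHE40, a repressor that HIF induces, read 7.96, 8.29 and 6.97 in vehicle, 7.39, 7.33 and 6.25 at 100 µg/ml and 7.17, 7.20 and 6.01 at 250 µg/ml. Here array 3 was the lowest in vehicle too, and the groups overlapped. Its change at 250 µg/ml was -0.95 ± 0.467 (limma adjusted p = 0.347), and without 250 µg/ml array 3 it was -0.56. With the array number as a replicate block it passed (limma adjusted p = 0.0244), as it did without all 3 arrays numbered 3 (limma adjusted p = 0.0398). The block pairs vehicle with dosed arrays by number, which the data did not show, and the second fit was chosen after seeing the data. Without both dosed arrays numbered 3 BHLHE40 did not pass (limma adjusted p = 0.465). KDM3A, a histone demethylase gene, differed by -0.78 ± 0.240 at 250 µg/ml (limma adjusted p = 0.17), or -0.53 without array 3 of that dose.

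For the remaining targets the group means depended on array 3. ADM, which encodes the vasodilator peptide adrenomedullin, read 7.67, 8.23 and 7.71 in vehicle, 8.19, 8.44 and 7.10 at 100 µg/ml and 8.25, 8.09 and 7.30 at 250 µg/ml, a change of 0.01 ± 0.377 at the higher dose. CA12, a carbonic anhydrase at the cell surface, read 4.14, 3.07 and 4.28 in vehicle, 4.79, 4.58 and 3.46 at 100 µg/ml and 4.15, 4.22 and 3.50 at 250 µg/ml. The CA12 change was 0.13 ± 0.424 at 250 µg/ml and 0.45 ± 0.424 at 100 µg/ml. In both genes array 3 was the lowest at each dose among the dosed arrays, inside or below the vehicle range. Without it the change of ADM was 0.30 at 250 µg/ml and 0.45 at 100 µg/ml, and that of CA12 was 0.36 and 0.86. P4HA1 and P4HA2 encode the collagen prolyl hydroxylase alpha subunits, and their changes at 250 µg/ml were -0.11 ± 0.554 and -0.01 ± 0.423. Without array 3 of each dose the change of P4HA1 was 0.49 at 250 µg/ml and 0.69 at 100 µg/ml, and that of P4HA2 was 0.30 and 0.44. Without all 3 arrays numbered 3 the change of P4HA1 was 0.60 at 250 µg/ml and 0.80 at 100 µg/ml. That of P4HA2, whose vehicle array 3 was low too, was then 0.05 and 0.19.

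**Figure D3:**
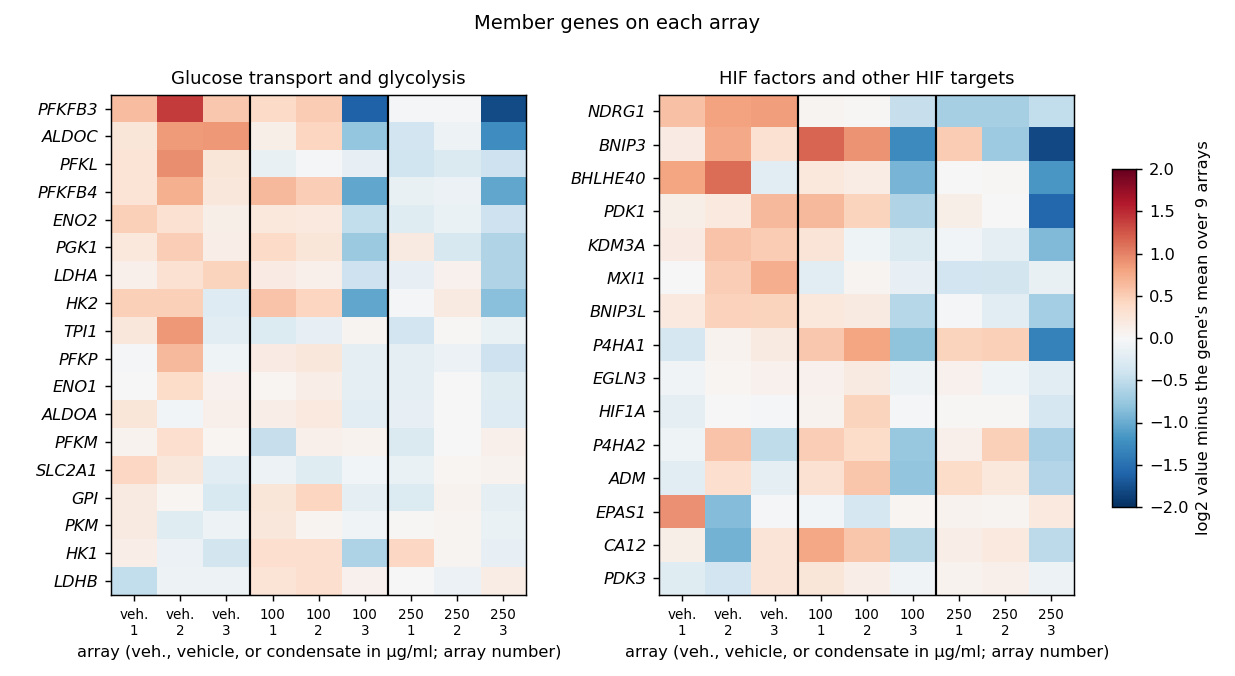
Each member's log2 value on each array minus its mean over the 9 arrays (colour), with arrays in columns by condensate dose and number and genes in rows, ordered by their change at 250 µg/ml. The third column at both doses holds most of the deep blue cells, and vehicle array 3 does not.

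The spread within the dosed groups followed the array number. Array 3 was the lowest of its group at both doses for 25 of 33 members, against 3159 of 14207 genes. In glycolytic members array 3 was low in vehicle too. Their median difference from the mean of arrays 1 and 2 was -0.27 in vehicle, -0.46 at 100 µg/ml and -0.20 at 250 µg/ml. For HIF and its other targets this median was 0.12, -0.77 and -0.68. In 5 members array 3 lay at least 1 log2 unit below the mean of arrays 1 and 2 at both doses, where 0.324% of all genes did. These were PFKFB3 in glycolysis and BNIP3, PDK1, P4HA1 and BHLHE40 among the HIF targets, and P4HA1 is described for this after its values were seen. P4HA1 read 10.18, 10.58 and 10.70 in vehicle, 11.05, 11.30 and 9.71 at 100 µg/ml and 10.96, 10.99 and 9.16 at 250 µg/ml. At both doses arrays 1 and 2 lay above every vehicle array and array 3 below every one. Of the 33 members only BHLHE40 had vehicle array 3 at least 1 log2 unit below the mean of vehicle arrays 1 and 2.

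In HIF and its other targets the mean of the 15 genes, each set against its own 9-array mean, was 0.12, 0.21 and 0.22 on the vehicle arrays. It was 0.32, 0.29 and -0.49 at 100 µg/ml and 0.05, -0.04 and -0.69 at 250 µg/ml. For the 18 glycolytic genes the same mean was 0.20, 0.41 and 0.06 in vehicle, 0.16, 0.21 and -0.42 at 100 µg/ml and -0.13, -0.04 and -0.45 at 250 µg/ml. On arrays 1 and 2 the glycolytic mean at 250 µg/ml was thus below all vehicle arrays, and that at 100 µg/ml was within their range. The 12 other HIF targets exclude the 3 factor and hydroxylase genes. At 250 µg/ml 9 of 12 had a lower mean, where 57.3% of all genes did. At 100 µg/ml 7 of 12 did, which is near the 59.2% of all genes. The median change of the 12 was -0.69 at 250 µg/ml and -0.15 at 100 µg/ml. Without array 3 of the dose these medians were -0.38 and 0.28, and the second was -0.43 without 100 µg/ml array 1, -0.36 without 100 µg/ml array 2, -0.26 without vehicle array 1 and -0.10 without vehicle array 2. Over all 15 genes of the class the median was -0.11 at 250 µg/ml and -0.12 at 100 µg/ml. Without array 3 of the 250 µg/ml group the first was -0.01, and without array 3 of the 100 µg/ml group the second was 0.23. Leaving out array 2 of the 250 µg/ml group made the first -0.42 and leaving out array 1 of that group -0.41. It was -0.27 without vehicle array 1, -0.33 without vehicle array 2 and -0.26 without vehicle array 3. The second was -0.06 without vehicle array 1, 0.03 without vehicle array 2, -0.18 without 100 µg/ml array 1 and -0.22 without 100 µg/ml array 2. The glycolytic median at 250 µg/ml stayed between -0.49 and -0.25 with any single array left out, the weakest without vehicle array 2.

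**Figure D4:**
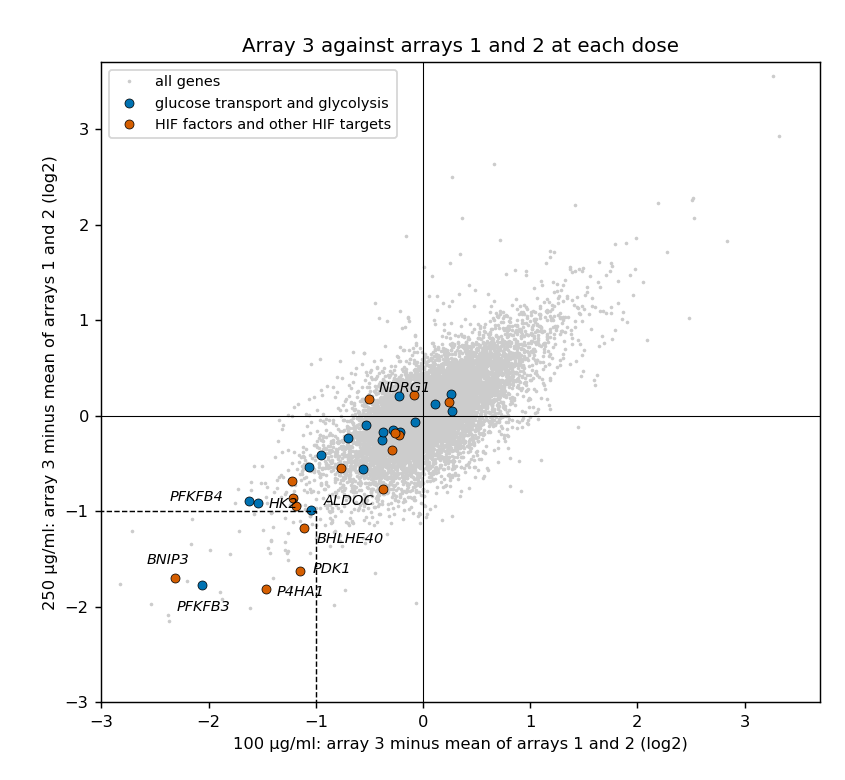
Array 3 minus the mean of arrays 1 and 2, in log2 units, at 100 µg/ml (x axis) and 250 µg/ml (y axis), for all genes (grey), members of glucose transport and glycolysis (blue) and members of HIF and its other targets (orange). The dashed corner encloses genes at least 1 log2 unit lower at both doses, among them PFKFB3, BNIP3, PDK1, P4HA1 and BHLHE40.

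The start regions of these 5 genes are shown because HIF binds DNA at a short core, of which ACGTG is a form. The search took the 250 bases before each RefSeq start (GRCh38.p14) and read both strands, so CACGT is the same match on the other strand and CACGTG reads as ACGTG on both. The regions are BHLHE40 at chr3:4979187-4979436 (plus strand), BNIP3 at chr10:131981924-131982173 (minus strand) and P4HA1 at chr10:73096867-73097116 (minus strand). PDK1 at chr2:172555840-172556089 and PFKFB3 at chr10:6202682-6202931 (both plus strand) are each the second listed start, since the first holds no match. Each is written on the gene's own strand, 5′ to 3′, with every match in capitals.
BHLHE40: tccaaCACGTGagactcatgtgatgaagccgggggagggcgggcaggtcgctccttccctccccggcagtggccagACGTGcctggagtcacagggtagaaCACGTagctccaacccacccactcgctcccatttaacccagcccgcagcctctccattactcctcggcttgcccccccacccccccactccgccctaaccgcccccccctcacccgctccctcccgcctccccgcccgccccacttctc
BNIP3: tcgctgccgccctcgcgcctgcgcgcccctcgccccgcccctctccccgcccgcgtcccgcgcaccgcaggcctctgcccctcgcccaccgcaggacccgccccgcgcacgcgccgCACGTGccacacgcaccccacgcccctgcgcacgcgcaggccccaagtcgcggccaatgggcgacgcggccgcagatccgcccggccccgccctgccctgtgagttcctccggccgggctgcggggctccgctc
P4HA1: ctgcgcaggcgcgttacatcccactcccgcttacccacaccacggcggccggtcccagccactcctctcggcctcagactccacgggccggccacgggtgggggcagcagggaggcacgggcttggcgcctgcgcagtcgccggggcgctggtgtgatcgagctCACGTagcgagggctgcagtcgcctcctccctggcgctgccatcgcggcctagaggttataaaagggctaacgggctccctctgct
PDK1: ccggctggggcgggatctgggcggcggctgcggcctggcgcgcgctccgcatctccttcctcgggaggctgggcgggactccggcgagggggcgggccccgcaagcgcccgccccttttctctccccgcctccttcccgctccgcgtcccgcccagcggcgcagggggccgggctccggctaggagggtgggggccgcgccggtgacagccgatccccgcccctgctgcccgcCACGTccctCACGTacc
PFKFB3: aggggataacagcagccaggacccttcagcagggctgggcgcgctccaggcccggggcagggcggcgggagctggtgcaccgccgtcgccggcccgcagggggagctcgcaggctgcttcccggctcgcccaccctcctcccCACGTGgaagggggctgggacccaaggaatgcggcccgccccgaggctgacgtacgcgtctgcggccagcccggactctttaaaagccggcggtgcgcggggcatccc

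BHLHE40, BNIP3 and PFKFB3 have the palindrome, BHLHE40 with further matches beside it, and PDK1 has more than 1 match. Of the 33 members 31 had an entry in the RefSeq table, with 57 starts, and 20 of these starts (35.1%) held the core. NDRG1, the only member past the threshold, and BNIP3L had no entry, so their start regions were not searched. By class it was 14 of 39 starts (35.9%) for glycolytic genes and 6 of 18 (33.3%) for HIF and its other targets. Among 16410 starts of measured genes 20.0% held it. The other form of the HIF core, GCGTG, read on both strands in the same windows, stood in 22 of the 57 starts (38.6%), where 38.9% of the starts of measured genes held it. By class GCGTG stood in 12 of 39 glycolytic starts (30.8%) and 10 of 18 starts of HIF and its other targets (55.6%). A match describes the letters and shows no binding.

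Between the doses, 0 of 33 members and 0 of 14207 genes passed the limma threshold (0% of all genes), with 262 genes and, of the members, only NDRG1 at an unadjusted p under 0.05. NDRG1 differed by -0.49 ± 0.155 between 250 and 100 µg/ml. Arrays of the 2 doses that share a number deviated together from their group means, so the doses were also compared within numbers. The 250 µg/ml array was below its 100 µg/ml partner in all 3 numbers for 17 of 33 members, where this held for 13.6% of all genes. They were 8 glycolytic genes, ALDOA, ALDOC, ENO1, GPI, LDHA, PFKFB3, PFKL and PFKP, and 9 of the HIF class, BHLHE40, BNIP3, BNIP3L, HIF1A, KDM3A, NDRG1, P4HA1, PDK1 and PDK3. EPAS1 was the only member higher in all 3.

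A limma fit of the 6 dosed arrays with the number as a replicate block gave 0 genes past the threshold, with a lowest adjusted p of 0.0995. It gave 12 of 33 members an unadjusted p under 0.05, all lower at 250 µg/ml, where 5.4% of all genes were lower at that level. The member with the lowest p was ALDOC, at -0.50 ± 0.086 (adjusted p = 0.187), followed by PDK1 at -0.65 ± 0.124 (adjusted p = 0.207). BNIP3 differed by -0.93 ± 0.212 in this fit (adjusted p = 0.245) and NDRG1 by -0.49 ± 0.153 (adjusted p = 0.335).

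Of 27 measured genes that hypoxia is known to induce and that are not members, 0 passed at either dose in limma. In 21 the mean was lower at 250 µg/ml, where 57.3% of all genes were lower. The median of the 27 changes was -0.32, against -0.04 over all genes. Array 3 was the lowest of its group at both doses for 20 of the 27. The mean of the 27, each gene set against its own mean over all arrays, was 0.042, 0.269 and 0.184 in vehicle. It was 0.247, 0.185 and -0.369 at 100 µg/ml and -0.033, -0.058 and -0.467 at 250 µg/ml. Arrays 1 and 2 at 250 µg/ml were thus below all vehicle arrays too, but by less than array 3. The part of array 3 in the median was not tested. At 250 µg/ml 7 of the 27 had an unadjusted p under 0.05, all lower, where 7.9% of all genes were lower at that level. VEGFA, the vascular growth factor, read 7.56, 8.47 and 8.07 in vehicle, 7.16, 7.07 and 6.54 at 100 µg/ml and 6.94, 6.75 and 6.40 at 250 µg/ml. All dosed arrays were below all vehicle arrays, with a change of -1.34 at 250 µg/ml (limma adjusted p = 0.0626) and -1.11 at 100 µg/ml (limma adjusted p = 0.195). WSB1, an adaptor of ubiquitin ligases, differed by -1.30 at 250 µg/ml (limma adjusted p = 0.0753). PLOD2, ERO1A and PPP1R3C also had array 3 at least 1 log2 unit low at both doses. STC2 had array 3 above the mean of arrays 1 and 2, by 1.308 at 100 µg/ml and 1.365 at 250 µg/ml. Of all 14207 genes, 46 had array 3 at least 1 log2 unit low at both doses and 119 had it as much higher.

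Of 11 measured HIF regulators 0 passed at either dose. Of these 7 had a lower mean at 250 µg/ml, with a median of -0.06, where 57.3% of all genes were lower. At an unadjusted p under 0.05 there were 2, both higher, where 8.74% of all genes were higher at that level. No difference between this list and the members was tested. HIF1AN, the asparagine hydroxylase that restrains HIF, read 7.12, 6.75 and 7.45 in vehicle, 7.54, 7.56 and 7.60 at 100 µg/ml and 8.03, 8.01 and 8.01 at 250 µg/ml. The 3 groups did not overlap, and the change was 0.91 at 250 µg/ml (limma adjusted p = 0.052). CUL2, the scaffold of the VHL ubiquitin ligase, differed by 0.61 (limma adjusted p = 0.231).

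Of 10 genes that act at or regulate the entry of pyruvate into mitochondria, 9 had a higher mean at 250 µg/ml, where 42.7% of all genes did, with a median of 0.40. None passed in limma, and 5 had an unadjusted p under 0.05, all higher, where 8.74% of all genes were higher at that level. MPC1, a pyruvate carrier subunit, differed by 0.92 (limma adjusted p = 0.165) and PDK4, a kinase that inhibits pyruvate dehydrogenase, by 0.39 (limma adjusted p = 0.107). The mean of the 10 against their 9-array means was -0.45, -0.20 and -0.01 on the vehicle arrays, 0.15, -0.03 and 0.07 at 100 µg/ml and 0.32, 0.04 and 0.12 at 250 µg/ml. Vehicle array 1 was the lowest, and its part in this difference was not tested.

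Of 24 other genes of glucose breakdown 0 passed. Of these 13 had a lower mean at 250 µg/ml, with a median of -0.03, where 57.3% of all genes were lower. At an unadjusted p under 0.05, 2 were higher and 3 lower, where 8.74% of all genes were higher and 7.9% lower. SLC2A12, a glucose transporter, had the largest change of these, 1.01 (limma adjusted p = 0.155), and BPGM, the bisphosphoglycerate mutase, followed with 0.63 (limma adjusted p = 0.193). Of 7 gluconeogenesis genes 0 passed, with a median of 0.01. At an unadjusted p under 0.05 there were 2, both higher, where 8.74% of all genes were higher at that level. G6PC3, the widely expressed glucose-6-phosphatase, differed by 0.75 (limma adjusted p = 0.0931) and PCK2, the mitochondrial phosphoenolpyruvate carboxykinase, by 0.59 (limma adjusted p = 0.245).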

How the data were processed

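The values are log2 summaries per probe set deposited by the authors; per the submitters' processing notes, RMA, Partek and the hg18 build were used, with no settings given. Of 17629 probe sets, 14378 named 1 gene, 2405 several and 846 none in the platform annotation. Symbols were updated through RefSeq GRCh38.p14 (28 unmatched).

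All 9 arrays were fitted with limma 3.58.1 (R 4.3.3), 1 mean per group and default moderation; the fit was tested on simulated data. Tables used Python 3.11.15 and pandas 2.3.3. The members and lists were chosen with earlier results of these data known. Values per array are given for members past the threshold, the 8 largest changes at each dose, and a set list of main genes; from other lists, for VEGFA and those past the threshold or of lowest p.

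Deviations from group means correlated between same-numbered dosed arrays (0.60, 0.44 and 0.68), so the numbers pair the doses, from the data and not the labels; with vehicle they did not (-0.14 to 0.26). The paired fit of the dosed arrays and leaving out all arrays numbered 3 were chosen after seeing the data.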

Additional observations from a re-analysis of the deposited data

How the results depend on the processing

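Over 21 other settings, the 99 changes of single members gave 2010 values, of which 2000 kept their side of the threshold, 4 lost a call (all NDRG1), 6 gained 1 and 0 called changes turned direction, while 100 values of uncalled changes had the other sign. Between the doses no setting called any gene. At 250 µg/ml the count of 78 genes became 153 with median centring, 129 with quantile normalization, 130 without dim genes, 1 with only the 6 arrays, 234 with array weights, 170 with trended robust moderation, 3 without moderation, 122 with the replicate block, 167 without both dosed arrays numbered 3 and 519 without all 3. The member count of 1 became 2 with quantile normalization, array weights, the replicate block or without all 3 arrays numbered 3, and 0 with only 6 arrays or no moderation. At 100 µg/ml 9 genes became 4 with quantile normalization, 1 with only 6 arrays, 73 with array weights, 0 without moderation, 3 with the replicate block, 47 without both dosed arrays numbered 3 and 291 without all 3. In the F test 28 genes became 68 with array weights, 55 with trended robust moderation, 0 without moderation, 5 with the replicate block, 94 without both dosed arrays numbered 3 and 242 without all 3, and the member count of 1 became 0 without moderation or with the replicate block. With 1 array left out the counts ran from 4 to 296 genes at 250 µg/ml, 1 to 57 at 100 µg/ml and 0 to 69 in the F test, and members from 0 to 2 at 250 µg/ml and 0 to 1 in the F test. The highest counts, 296, 57 and 69, came without vehicle array 3, and the lowest at 250 µg/ml without 250 µg/ml array 2. The median at 100 µg/ml became 0.12 for the HIF genes and -0.07 for the glycolytic genes with array weights, and without all 3 arrays numbered 3 it became 0.19 and -0.08, while the HIF median at 250 µg/ml became 0.03. The causes were not tested. The number of arrays limits the precision. RMA can compress the changes of dim probe sets such as that of TPI1, which was not tested.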

Other observations

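The probe sets that name a listed gene together with another gene enter no comparison. A probe set for SLC2A3 and SLC2A14, both glucose transporters, read 7.31, 7.60 and 7.39 in vehicle, 7.20, 7.48 and 6.84 at 100 µg/ml and 6.89, 7.06 and 6.68 at 250 µg/ml. The other probe set for the same pair read 4.57, 4.50 and 4.46 in vehicle, 4.32, 4.51 and 4.18 at 100 µg/ml and 4.15, 4.14 and 3.91 at 250 µg/ml. In both, all 250 µg/ml arrays lay below all vehicle arrays, and which of the genes gave the signal was not tested. The probe set for EGLN1, a prolyl hydroxylase, and SCAND2P read 6.30, 6.89 and 6.65 in vehicle, 6.58, 6.32 and 6.20 at 100 µg/ml and 6.65, 6.39 and 6.33 at 250 µg/ml, with overlapping groups.

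PDGFRB, a receptor on the fibroblast list, had array 3 high at both doses, where the 5 hypoxia-responsive members had it low. It read 8.30, 8.41 and 6.88 in vehicle, 6.17, 6.18 and 8.23 at 100 µg/ml and 6.24, 6.57 and 7.81 at 250 µg/ml. The other measured fibroblast markers did not share this. In the dosed groups their array 3 differed from the mean of arrays 1 and 2 by only -0.363 to 0.197. COL1A1 read 6.55 on vehicle array 2 and 3.50 to 3.75 on the other arrays. The part of either gene's source in the members' values was not tested.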
